A study of Mus musculus with 281 samples.

Results

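The H2 genes are the mouse major histocompatibility complex, and their RNA was described here in single cells of the cochlear stria vascularis. Every gene of the deposited table whose name begins with H2- was taken, except 3 entries whose names contain -ps. This gave 41 of 47752 genes, of which 29 belong to class I, 11 to class II and 1 (H2-Ke6) to neither class. The study picked 281 dissociated cells one at a time with pulled-glass micropipettes and made a full-length Smart-Seq2 library from each. The genotypes held 172 Slc26a4+/+, 40 Slc26a4+/- and 69 Slc26a4-/- cells, the last from mice with no functional pendrin, an anion exchanger. The labels give 129S6 as the strain of the Slc26a4+/+ cells and only the genotype for the other cells, while the methods place all mice on a 129S6 background and state that all were male. Slc26a4+/+ cells were taken at 22 to 42 days of age, Slc26a4+/- cells at 26 to 33 days and Slc26a4-/- cells at 24 to 44 days. Because no label names an animal, each genotype counts as 1 sample, no test between genotypes was possible and every comparison below is a description of these cells.

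Class I molecules hold peptides from inside the cell on the cell surface, where CD8 T cells and natural killer cells read them. Each is a heavy chain, encoded by an H2 gene such as H2-K1 or H2-D1, paired with the light chain beta-2-microglobulin (B2m) and loaded in the endoplasmic reticulum with peptides carried in by the transporter Tap1/Tap2. The classical heavy chains are H2-K1, H2-D1 and, in some strains, H2-L, and the Q, T and M genes encode non-classical relatives such as H2-T23 (Qa-1) and H2-Q7 (Qa-2). Class II molecules, made of an alpha chain (H2-Aa) and a beta chain (H2-Ab1, H2-Eb1), show peptides from outside the cell to CD4 T cells and are made mainly by macrophages, dendritic cells and B cells. The invariant chain Cd74 guides them, and H2-DMa, H2-DMb1 and H2-DMb2 exchange their peptides. In the stria, intermediate cells (IMCs) are pigmented cells that carry the potassium channel Kcnj10, marginal cells (MCs) secrete potassium, and spindle cells (SCs) and root cells (RCs) express pendrin.

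The member genes lie on chromosome 17 (GRCm38) between 33974659 and 37483552, a stretch of 3.51 Mb. H2-K1 (ENSMUSG00000061232) lies at chr17:33996017-34000347 on the minus strand and H2-D1 (ENSMUSG00000073411) at chr17:35262730-35267499 on the plus strand. The genotypes differed in which form of H2-K1 was counted, so the ends of both are shown. The spliced fragments run 5′ to 3′ on the minus strand, within chr17:33996472-33996654 (GRCm38). They span from the first base of the exon before the last intron to the stop codon. Capitals mark 27 coding bases, or 9 codons, at chr17:33996477-33996503, the start of the last coding exon, that the long transcript ENSMUST00000025181 has and the short transcript ENSMUST00000172912 lacks.
H2-K1 long form: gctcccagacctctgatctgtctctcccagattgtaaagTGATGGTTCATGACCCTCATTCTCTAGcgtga
H2-K1 short form: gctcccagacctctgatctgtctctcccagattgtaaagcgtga

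The start regions of the members were also read, from the RefSeq promoters of GRCm38.p6. A set of 5 letter patterns was searched on both strands in the 250 bases before each start, for 34 promoters of 31 of the 41 members and for all 32851 promoters. GGGGATTCC, a core of the class I enhancer that NF-kB binds, stood in 5 member promoters (those of H2-D1, H2-K1, H2-Q6 and H2-Q7) and in 0.213% of all promoters. TTTCACTTC, a core of the interferon-stimulated response element of class I genes, stood in 8 member promoters (H2-D1, H2-K1, H2-M3, H2-Q10, H2-Q4, H2-Q6 and H2-Q7) and in 0.402% of all. TGACGC stood in 4 member promoters (H2-D1, H2-K1 and H2-M3) and in 6.12% of all. TTTCNNTTT stood in 5 (H2-DMa, H2-M11, H2-T22, H2-T23 and H2-T3) and in 9.37% of all, and CCAAT in 30 and in 33.8% of all. The patterns did not overlap one another in the windows shown, which lie at chr17:34000359-34000468 (minus strand) for H2-K1, a classical gene, and chr17:35439012-35439121 (plus strand) for H2-Q7, a non-classical one. Capitals mark matches to GGGGATTCC, TTTCACTTC and TGACGC. Both genes carry the first 2 patterns in the same order at a like spacing, and the window of H2-Q7 has no TGACGC.
H2-K1: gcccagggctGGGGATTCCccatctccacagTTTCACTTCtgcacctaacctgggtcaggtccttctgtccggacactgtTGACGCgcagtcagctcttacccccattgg
H2-Q7: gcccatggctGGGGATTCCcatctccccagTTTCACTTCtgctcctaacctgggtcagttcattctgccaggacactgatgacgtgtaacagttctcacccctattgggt

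Depth ran from 1848 to 7932729 estimated counts per cell, with medians of 1166721, 2221967 and 1226474 for Slc26a4+/+, Slc26a4+/- and Slc26a4-/-. Clustering without the H2 and pathway genes gave 103 IMC-like, 33 SC-like, 36 RC-like and 21 MC-like cells. Another 71 cells led by Slc4a1 and 17 led by Crhbp stayed unnamed, since too few of each cluster scored highest for a single type. The IMC-like score was highest in 66.2% of the Slc4a1-led cells, and the SC-like score in 64.7% of the Crhbp-led cells. Clusters were named from lists that include Dct, Anxa1, Epyc and Kcne1, so the levels of these genes describe the clusters and do not test the names. Levels were taken as CPM, a cell's counts scaled to a total of 1000000, and mean Dct was 47649 CPM in IMC-like cells and 315 to 647 in the other named types, Anxa1 was 4570 in SC-like, Epyc 10394 in RC-like and Kcne1 4115 in MC-like cells. Slc26a4 RNA averaged 691 CPM (SC-like), 1024 CPM (RC-like) and 1.21 CPM (IMC-like). It did not separate the genotype labels in the pendrin-expressing (SC-like and RC-like) cells, where its mean was 968.5, 554 and 793 CPM in that genotype order, so genotypes here are those the labels give. The deposited per-cell names carry 4 date codes, called runs here. Cells that shared date code, a second code, age and genotype formed a session. This gave 37 sessions, each of 1 genotype and age by construction. All Slc26a4+/- cells were in run 4, run 3 held only Slc26a4+/+ cells, run 1 held Slc26a4+/+ cells and 1 Slc26a4-/- cell, and runs 2 and 4 held both Slc26a4+/+ and Slc26a4-/- cells.

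Of the 41 members, 11 had no count in any cell: the class I genes H2-M1, H2-M9, H2-M10.1, H2-M10.2, H2-M10.4, H2-M10.5, H2-M10.6, H2-M11 and H2-Q3 and the class II pseudogenes H2-Pa and H2-Pb. Another 4 (H2-Oa, H2-M2, H2-M5 and H2-M10.3) never passed 5 counts in a cell. The remaining 26 reached 10 counts in at least 1 cell, and 19 of them had a mean of at least 10 CPM in some cell type of some genotype. The other 7 (H2-Ob, H2-Eb2, H2-Bl, H2-T3, H2-Q2, H2-Q5 and H2-Q6) peaked between 5.32 and 206.96 CPM in single cells. Detection was widest for H2-D1, with a count in 216 cells, followed by H2-Ke6 in 209, and H2-K1, H2-Q7 and H2-T23 each had a count in at least 200.

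The 19 genes with higher levels differed by cell type and class. Among Slc26a4+/+ cells, H2-D1 was highest in SC-like cells, and H2-T23 and H2-Q7 in IMC-like cells. The class II chains H2-Ab1 and H2-Aa had their highest mean in RC-like cells, mostly from 1 macrophage-marked cell, without which the means were 0.0742 and 1.42 CPM. For H2-Aa this was still above the other types, which were at 0.0267 CPM or lower. The heat map of mean levels shows class I and H2-Ke6 RNA across all 4 types and class II RNA in few of them.

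**Figure D1:**
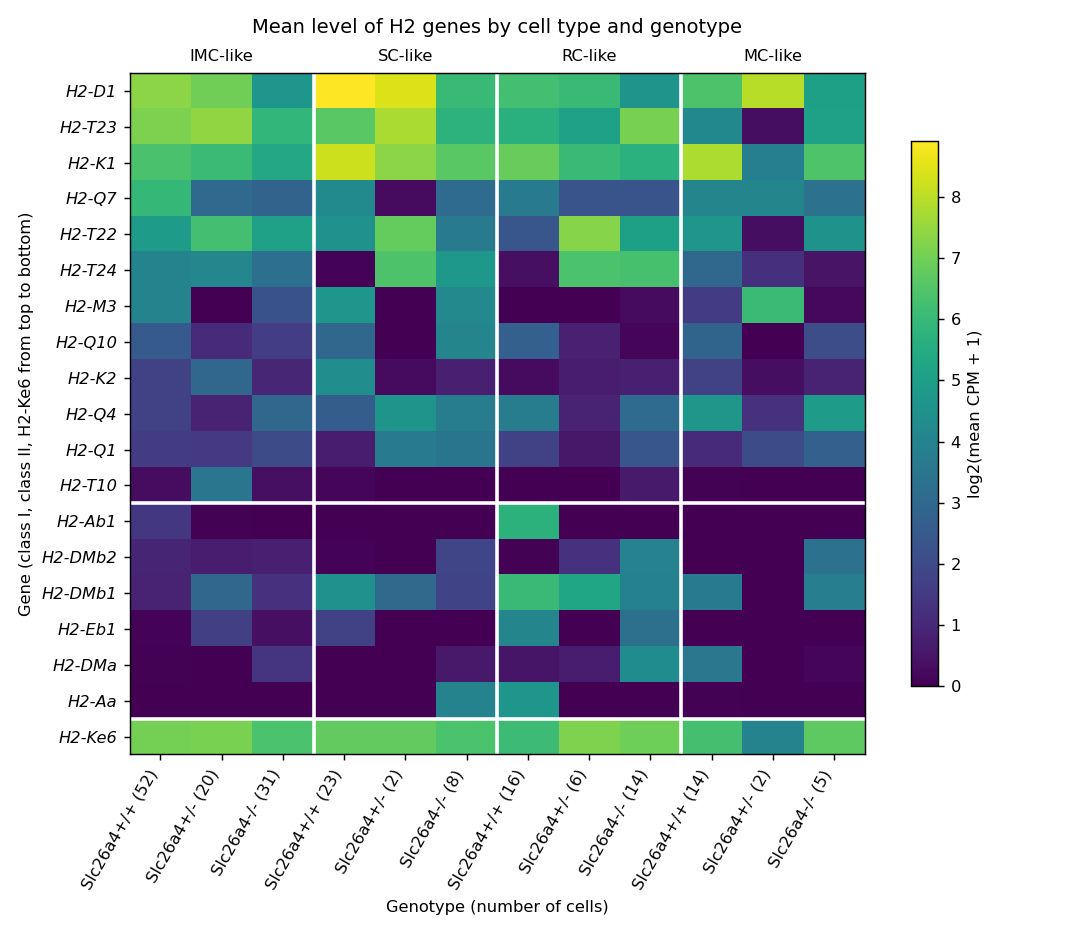
Mean level of the 19 H2 genes with at least 10 CPM in some group, as log2(mean CPM + 1), with genes in rows and the 4 named cell types by genotype in columns. H2-D1 in Slc26a4+/+ cells was 481 CPM (SC-like) and 75.01 CPM (RC-like), and in IMC-like cells it was 165 CPM in Slc26a4+/+ and 24.6 in Slc26a4-/- cells.

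H2-D1, a classical class I heavy chain, had a mean of 481 CPM in the 23 Slc26a4+/+ SC-like cells (lowest 0.449, median 506, highest 1693) and was counted in all of them. In the 52 IMC-like cells its mean was 165 CPM, with a lowest of 0, a median of 33.7 and a highest of 849. It averaged 75.01 CPM in the 16 RC-like cells (median 11.98, highest 540) and 85.6 CPM in the 14 MC-like cells (median 32.8, highest 306). All 4 ranges overlapped. The excess of SC-like over IMC-like cells was 1.54 on the log2 scale of mean CPM + 1, and without run 3, which held 15 of the 23 SC-like cells, it was 0.10.

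H2-K1, the other classical heavy chain, averaged 297 CPM in SC-like cells (median 193, highest 977) and 223 CPM in MC-like cells (median 218, highest 608). Its RC-like mean was 114 CPM (median 0.343, highest 668) and its IMC-like mean was 81.5 CPM (median 1.28, highest 761). Most MC-like and SC-like cells therefore held it, while in IMC-like and RC-like cells the mean came from part of the cells: 33 of 52 IMC-like and 8 of 16 RC-like cells had a count. H2-K1 and H2-D1 were not always found together. With at least 10 counts as detection, 15 of 52 IMC-like cells held both, 8 held H2-K1 alone, 14 held H2-D1 alone and 15 held neither. Among 21 SC-like cells of at least 100000 counts, 16 held both and 2 held neither.

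**Figure D2:**
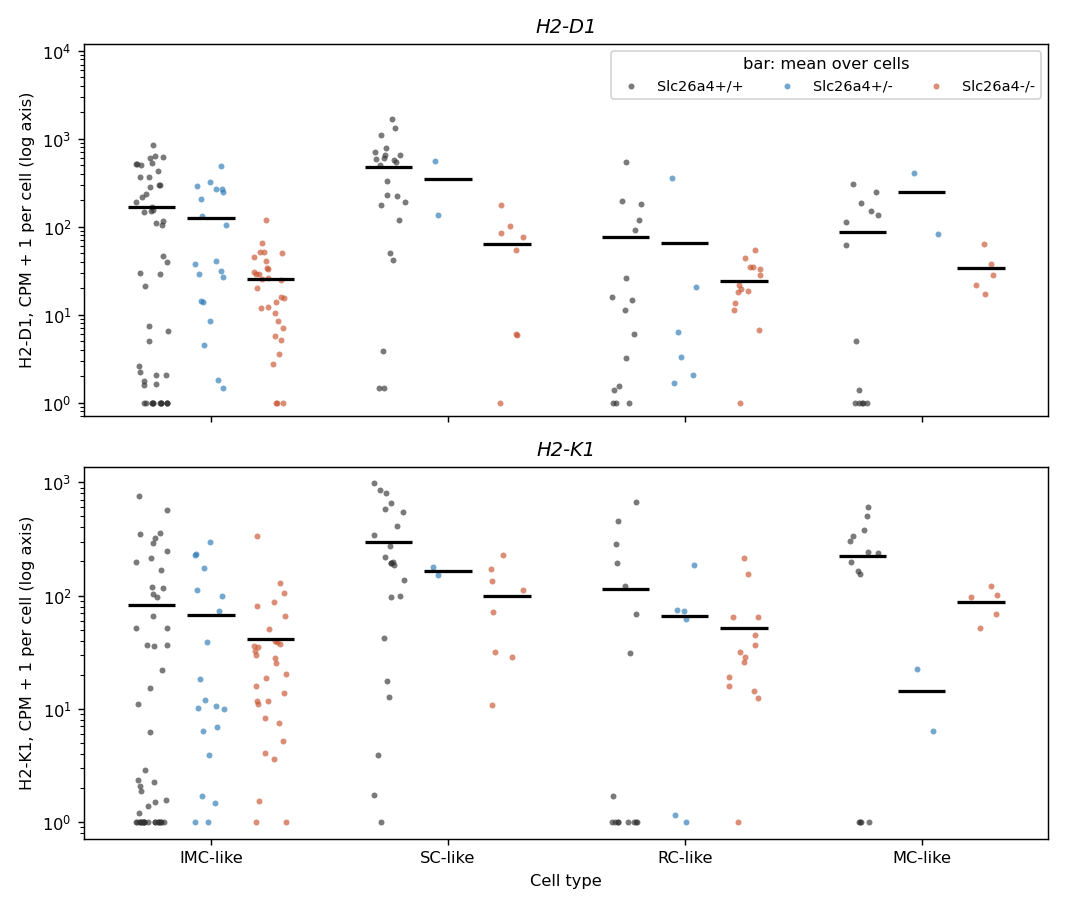
H2-D1 and H2-K1 in each cell, as CPM + 1 on a log axis, by cell type and genotype; each point is a cell and each bar is the mean. In IMC-like cells the Slc26a4-/- points for H2-D1 end at 119 CPM while those of Slc26a4+/+ cells reach 849 CPM, and the H2-K1 mean of SC-like Slc26a4+/+ cells is 297 CPM.

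The non-classical genes had other orders. H2-T23, which presents class I leader peptides to natural killer cell receptors, was 140 CPM in IMC-like cells (lowest 0, median 98.3, highest 597) and had a count in 44 of 52 of them, while SC-like, RC-like and MC-like cells averaged 99.3, 49.6 and 16.9 CPM. H2-Q7 was 59.8 CPM in IMC-like cells, where 48 of 52 cells had a count, and 12.04 to 18.4 in the other types. H2-T24 was 14.9 CPM among IMC-like and 6.90 among MC-like cells, and near 0 elsewhere (0.0553 CPM in SC-like, 0.275 in RC-like). H2-T22 was lowest in RC-like cells, at 4.26 CPM, and lay between 21.5 and 28.9 CPM in the other named types. H2-M3, which presents formylated peptides, was 24.9 CPM in SC-like and 14.7 in IMC-like cells, and was not counted in RC-like cells. H2-K2, a transcribed pseudogene, was 19.7 CPM in SC-like cells, and H2-Q4 was 25.1 in MC-like cells. The remaining class I genes among the 19, H2-Q1, H2-Q10 and H2-T10, were at 6.72 CPM or lower in each type. H2-Ke6 (Hsd17b8), a mitochondrial dehydrogenase gene that sits among the H2 genes, ranged less, from 67.8 CPM in RC-like to 130 CPM in IMC-like cells.

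Of the 15 members with at least 10 CPM in one of the 4 types, 2 were highest in IMC-like cells by at least 1 on the log2 scale over the next type (H2-T24 and H2-Q7), beside 8.54% of all genes, 2 in SC-like cells (H2-D1 and H2-K2), beside 8.29%, 4 in RC-like cells (H2-DMb1, H2-Ab1, H2-Aa and H2-Eb1), beside 11.5%, and 1 in MC-like cells (H2-DMa), beside 6.14%. The RC-like count rested on few cells, as described with the class II genes, and the MC-like one on 1 cell.

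Levels were compared between genes as TPM, a scale that divides by transcript length. In Slc26a4+/+ IMC-like cells H2-Ke6 was first at 279 TPM, or 37.98% of the summed members, followed by H2-T23 at 149, H2-D1 at 134 and H2-K1 at 90.2 TPM. In SC-like cells H2-D1 (357 TPM) and H2-K1 (313.8 TPM) led, and without run 3 the order of this pair turned, with a log2 ratio of H2-D1 to H2-K1 of -1.26 in place of 0.18. In MC-like cells H2-K1 led at 252 TPM, 44.9% of the summed members, against 64.9 TPM for H2-D1. The B2m light chain was below the summed class I heavy chains in each type, with 125 TPM beside 451 TPM of heavy chains in IMC-like cells, 120 beside 857 (SC-like), 31.5 beside 248 (RC-like) and 34.1 beside 388 (MC-like). The class I genes share sequence: 26.8% of the 31-base words of H2-D1, 24.2% of those of H2-K1 and 51.8% of those of H2-T22 also occur in another gene, so reads could be split between copies by estimation.

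The comparison of Slc26a4-/- with Slc26a4+/+ cells asked which counted RNA levels differ between these genotypes. The levels are counts assigned against the transcripts of 1 reference genome. Whether the animals of each genotype carried that sequence at the H2 genes was not tested. In IMC-like cells class I RNA was lower in the Slc26a4-/- cells. The summed class I level averaged 190 CPM in 31 Slc26a4-/- cells (lowest 21.1, median 145, highest 734) against 519 CPM in 52 Slc26a4+/+ cells (lowest 11.4, median 437, highest 1581), and was 485 CPM in 20 Slc26a4+/- cells (lowest 25.7, median 426, highest 1369). The Slc26a4+/- cells lay near the Slc26a4+/+ cells, and the ranges of all 3 genotypes overlapped. Of 8 members with at least 10 CPM in either genotype, 4 (H2-D1, H2-Q7, H2-T23 and H2-M3) were lower in Slc26a4-/- cells by at least 1 on the log2 scale, beside 17.4% of all genes, and 0 were higher, beside 11.5% of all genes. The median log2 ratio was -1.12 over the members and -0.12 over all genes. Within run 2, 1 of 8 was higher (H2-K1, beside 30.5% of all genes) and 6 were lower (beside 24.2%), and within run 4, 1 was higher (H2-M3, beside 24.3%) and 3 were lower (H2-D1, H2-Q7 and H2-T23, beside 21.7%).

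H2-D1 averaged 24.6 CPM in Slc26a4-/- IMC-like cells (lowest 0, median 19.1, highest 119) against 165 CPM in Slc26a4+/+ cells, a log2 ratio of -2.70. It was 126 CPM in Slc26a4+/- cells (lowest 0.470, median 38.2, highest 487). The RNA was not missing from the Slc26a4-/- cells, since 28 of 31 had a count (90.3%, exact binomial 95% interval 74.2 to 98%, counting error only) against 39 of 52 Slc26a4+/+ cells (interval 61.1 to 86%). The 9 Slc26a4-/- session means ran from 4.36 to 43.9 CPM, inside the 0 to 464 CPM of the 18 Slc26a4+/+ sessions, whose median was 138 CPM. The mean was also lower within run 4 (29.9 against 196 CPM, medians of 31.7 and 167) and within run 2 (21.7 against 113 CPM). Within run 2, however, 5 of the 9 Slc26a4+/+ cells were at 0 CPM, so the median cell went the other way (13.8 CPM in Slc26a4-/- and 0 in Slc26a4+/+ cells), and without its highest cell the Slc26a4+/+ mean was 62.6 CPM.

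H2-Q7 averaged 6.09 CPM in Slc26a4-/- IMC-like cells (lowest 0, median 1.31, highest 71.99) against 59.8 CPM in Slc26a4+/+ cells (median 32.1, highest 291), a log2 ratio of -3.10. The Slc26a4+/- cells resembled the Slc26a4-/- cells at this gene, with a mean of 7.26 CPM (lowest 0, median 1.57, highest 32.4). Within run 2 the Slc26a4-/- mean was 7.23 against 99.7 CPM, and within run 4 it was 4.01 against 21.7 CPM. Session means of Slc26a4-/- and Slc26a4+/- cells stayed at 0 to 12.6 and 1.19 to 10.1 CPM, inside the 0 to 288 CPM of Slc26a4+/+ sessions.

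**Figure D3:**
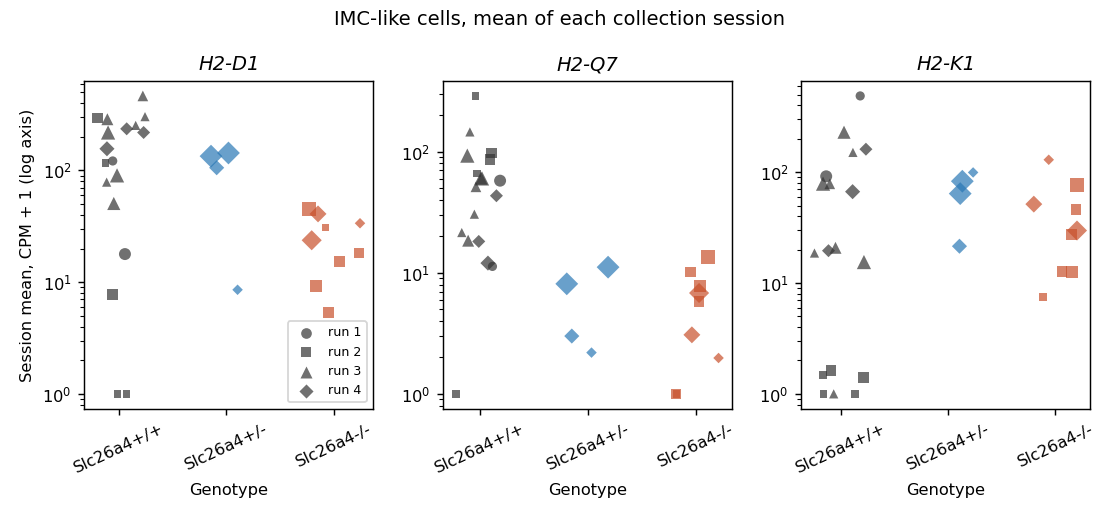
Session means of H2-D1, H2-Q7 and H2-K1 in IMC-like cells by genotype, in CPM; each point is a session, its shape gives the run and its size grows with the number of cells. Slc26a4-/- sessions for H2-D1 lie between 4.36 and 43.9 CPM, while Slc26a4+/+ sessions spread from 0 to 464 CPM.

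H2-T23 averaged 58.6 CPM in Slc26a4-/- IMC-like cells (lowest 0, median 4.10, highest 315) against 140 in Slc26a4+/+ and 171 in Slc26a4+/- cells, with log2 ratios to Slc26a4+/+ of -1.67 within run 2, where the medians were 1.51 and 0.703 CPM, and -1.002 within run 4. H2-K1 differed in another way. Its mean was 40.6 CPM in Slc26a4-/- and 81.5 in Slc26a4+/+ cells (log2 ratio -0.99), yet its median cell was higher in Slc26a4-/- cells, at 24.6 against 1.28 CPM, and 29 of 31 against 33 of 52 cells had a count. Within run 2 the Slc26a4+/+ mean was only 0.397 CPM over 9 cells, against 37.7 CPM in Slc26a4-/- cells, and within run 4 the means were 79.3 and 45.8 CPM. H2-M3 was 3.80 against 14.7 CPM, a difference that rested on few cells, since 1 Slc26a4+/+ cell held 47.9% of the summed level and run 4 went the other way (10.6 against 0 CPM).

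Other members of the IMC-like cells were closer together. In Slc26a4-/-, Slc26a4+/- and Slc26a4+/+ cells, in that order, H2-Ke6 was 82.8, 138 and 130 CPM, H2-T22 was 32.9, 75.3 and 28.9 CPM, and H2-T24 was 8.44, 16.5 and 14.9 CPM. H2-Q1 was low throughout but was found in more cells of the mutant genotypes, with a count in 24 of 31 Slc26a4-/- and 15 of 20 Slc26a4+/- cells against 9 of 52 Slc26a4+/+ cells. At an even 100000 counts per cell these shares were 16.1%, 20% and 5.77%. In Slc26a4+/- cells against Slc26a4+/+ cells, 2 of 9 members were higher (H2-T22 and H2-T10, beside 10.9% of all genes) and 2 were lower (H2-M3 and H2-Q7, beside 18.9%). H2-T10 was 10.2 CPM in Slc26a4+/- cells, with 1 cell holding 69.95% of its sum. For H2-T22, the means of the 3 Slc26a4+/- sessions with at least 3 IMC-like cells were 0.407, 0.675 and 187 CPM. Within run 4, which holds all Slc26a4+/- cells, 1 member was higher (H2-T10, beside 24.4%) and 1 lower (H2-Q7, beside 19.2%). This comparison shares the Slc26a4+/+ cells with the one above.

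Markers of other cells were measured beside these results. The summed macrophage list was 561 CPM in Slc26a4-/- and 545 in Slc26a4+/+ IMC-like cells, with Aif1, Adgre1 and Mrc1 at 0 in both, and the B cell list was at most 2.15 CPM in every group. The pericyte list was 458 CPM in Slc26a4-/- (median 96.9) and 87.6 in Slc26a4+/+ IMC-like cells (median 13.1), with Kcnj8 at 0 in both, and its part in the class I difference was not tested.

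In the pendrin-expressing cells the 22 Slc26a4-/- cells also had less of both classical class I genes than the 39 Slc26a4+/+ cells. The summed class I level averaged 332 CPM against 696 CPM, with 546 CPM in 8 Slc26a4+/- cells. The mix of types differed, with 8 SC-like and 14 RC-like Slc26a4-/- cells against 23 SC-like and 16 RC-like Slc26a4+/+ cells. In TPM the Slc26a4-/- sum was 364 against 857 in SC-like cells but 317 against 248 in RC-like cells. The part of cell mix in the pooled level was not tested. Of 14 members with at least 10 CPM, 7 (H2-D1, H2-K1, H2-Q7, H2-M3, H2-K2, H2-DMb1 and H2-Ab1) were lower in Slc26a4-/- cells, beside 22.2% of all genes, and 3 (H2-T24, H2-DMa and H2-DMb2) were higher, beside 15.5%. The median log2 ratio was -0.93 over the members and -0.13 over all genes. Within run 2, where few Slc26a4+/+ cells stood behind each mean, 6 of 12 members were higher, beside 55.8% of all genes, and 4 lower, beside 22.7%. Within run 4, 4 of 15 were higher, beside 28.5%, and 9 lower, beside 28.4%. In run 4 all 7 Slc26a4-/- cells were RC-like, while the Slc26a4+/+ cells were 3 SC-like and 5 RC-like. By type over all runs, the median log2 ratio was -0.63 over the members and -0.29 over all genes in SC-like cells. In RC-like cells it was -0.72 and -0.07. Each type had members past 1 in both directions. Among RC-like cells the 2 medians were -1.96 and 0.23 in run 4. They were 4.22 and 4.41 in run 2, which held 1 Slc26a4+/+ RC-like cell. With both types pooled and the highest cell of each genotype left out gene by gene, 4 members were lower (H2-D1, H2-K1, H2-Q7 and H2-DMb1) and 1 was higher (H2-T24). The H2-Ab1 difference rested on 1 macrophage-marked Slc26a4+/+ cell, without which both means were near 0.

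H2-D1 averaged 37.6 CPM in the Slc26a4-/- pendrin-expressing cells (lowest 0, median 23.97, highest 177) against 314.5 CPM in the Slc26a4+/+ cells (lowest 0, median 174, highest 1693), a log2 ratio of -3.03. The Slc26a4+/- cells averaged 135 CPM (lowest 0.661, median 12.4, highest 557). The mean was lower in SC-like cells (62.6 against 481 CPM) and in RC-like cells (23.3 against 75.01 CPM). In RC-like cells 1 Slc26a4+/+ cell at 540 CPM carried much of this, since the Slc26a4+/+ mean was 44.01 CPM without it and the median cell was higher in Slc26a4-/- cells (19.8 against 11.98 CPM). Run 4 had the lower mean too (19.1 against 153 CPM). There all Slc26a4-/- cells were RC-like, while 3 of 8 Slc26a4+/+ cells were SC-like. Within run 2, which held 3 Slc26a4+/+ cells, the order turned (46.2 against 16.4 CPM). H2-K1 averaged 68.1 CPM in Slc26a4-/- cells (lowest 0, median 33.2, highest 226), 89.9 in Slc26a4+/- and 222 in Slc26a4+/+ cells (lowest 0, median 121, highest 977). It was lower within run 4 (30.6 against 248 CPM, medians of 24.8 and 189). Within run 2 the means were 85.6 and 224 CPM, but the 3 Slc26a4+/+ cells held 668, 2.86 and 0 CPM, and the median cell was higher in Slc26a4-/- cells (63.5 against 2.86 CPM). H2-Q7 was low in both mutant genotypes (5.34 CPM in Slc26a4-/- and 3.08 in Slc26a4+/-) beside 15.8 CPM in Slc26a4+/+ cells. All 8 Slc26a4-/- SC-like cells came from run 2 and 15 of 23 Slc26a4+/+ SC-like cells from run 3, and the summed basal cell marker list was 1171 CPM in Slc26a4-/- against 2477 CPM in Slc26a4+/+ cells. The part of run, of cell mix and of basal cell RNA in these differences was not tested.

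H2-T24 went the other way. It averaged 59.7 CPM in Slc26a4-/- pendrin-expressing cells (lowest 0, median 0.886, highest 386) and 0.146 CPM in Slc26a4+/+ cells (highest 1.48). At least 10 counts were found in 8 of 22 Slc26a4-/- cells from 5 of 7 sessions and in 0 of 39 Slc26a4+/+ cells. The Slc26a4+/- cells averaged 83.1 CPM, with 3 of 8 cells at 10 counts or more and 1 cell holding 74.1% of the sum. The log2 ratio of Slc26a4-/- to Slc26a4+/+ was 5.73 with a pseudocount of 1 CPM, and the means were 51.2 against 0.155 CPM within run 2 and 77.9 against 0.277 CPM within run 4. Little of the sequence of H2-T24 is shared with other genes (6.52% of its 31-base words). Its neighbour H2-T22 was 25.3 CPM in Slc26a4-/- against 14.4 in Slc26a4+/+ cells, and 143 CPM in Slc26a4+/- cells. H2-T23 was 105 CPM in Slc26a4-/- and 78.9 CPM in Slc26a4+/+ cells, and the order differed by type, since Slc26a4-/- cells were higher in RC-like cells (136 against 49.6 CPM) and lower in SC-like cells (52.6 against 99.3 CPM). H2-Ke6 differed little, from 91.3 CPM (Slc26a4+/+) to 136 CPM (Slc26a4+/-), with 107 CPM in Slc26a4-/- cells.

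The higher H2-DMa (12.4 against 0.172 CPM) and H2-DMb2 (10.1 against 0.0582 CPM) of Slc26a4-/- pendrin-expressing cells came from few cells, with 3 of 22 cells at 10 counts or more of H2-DMa and 66.8% of its sum in 1 cell. Among Slc26a4+/- against Slc26a4+/+ pendrin-expressing cells, 7 of 12 members were lower (H2-D1, H2-K1, H2-Q7, H2-M3, H2-K2, H2-Ab1 and H2-Aa), beside 27.8% of all genes, and 2 were higher (H2-T22 and H2-T24), beside 19.4%. The H2-Ab1 and H2-Aa differences rested on the same macrophage-marked Slc26a4+/+ cell, with 0.029 and 0.560 CPM left in Slc26a4+/+ cells without it. The H2-D1 difference of this pair turned to a log2 ratio of 0.34 without run 3. The mix of types also differed, with 2 SC-like and 6 RC-like Slc26a4+/- cells against 23 SC-like and 16 RC-like Slc26a4+/+ cells. By type, H2-D1 was 347 CPM in Slc26a4+/- against 481 CPM in Slc26a4+/+ SC-like cells. In RC-like cells it was 49.9 against 49.3 TPM. The part of cell mix in the pooled differences was not tested.

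In the 5 Slc26a4-/- MC-like cells H2-D1 ran from 16.1 to 62.4 CPM (mean 32.6, median 27.6) and H2-K1 from 50.5 to 121 CPM (mean 87.2, median 96.8). The 14 Slc26a4+/+ MC-like cells averaged 85.6 CPM of H2-D1 and 223 CPM of H2-K1 and spread more widely, from 0 to 306 and from 0 to 608 CPM. Here 3 of 9 members (H2-D1, H2-K1 and H2-DMa) were lower, beside 26.4% of all genes, and 0 were higher, beside 26.1%. The H2-DMa difference rested on 1 Slc26a4+/+ cell (147 CPM), the other 13 being at 0. Run 2, the only run with both genotypes of this type, went another way over 2 Slc26a4-/- and 4 Slc26a4+/+ cells. There H2-D1 was higher in Slc26a4-/- cells (45.001 against 15.4 CPM), H2-K1 was 94.03 against 125 CPM, and of 8 members 4 were higher (beside 37.5% of all genes) and 2 lower (beside 40.4%).

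The 2 forms of H2-K1 whose ends are printed above were counted in nearly opposite shares in the genotypes. Among cells with at least 10 counts of H2-K1, the short form took a median of 7.74% of the gene's counts in the 77 Slc26a4+/+ cells. The median was 85.1% over 33 Slc26a4+/- and 98.7% over 54 Slc26a4-/- cells. It took over 50% in 4 of 77 Slc26a4+/+ cells (5.19%, exact binomial 95% interval 1.43 to 12.8%, counting error only), 21 of 33 Slc26a4+/- cells and 49 of 54 Slc26a4-/- cells (90.7%). Slc26a4+/- cells lay between the other genotypes in this count. By session, the median was 0 to 22.7% in 18 Slc26a4+/+ sessions, none above 50%, 36.9 to 92.0% in 4 Slc26a4+/- sessions, and 79.02 to 100% in 10 Slc26a4-/- sessions, all above 50%. Session medians of Slc26a4+/+ and Slc26a4-/- cells did not overlap.

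**Figure D4:**
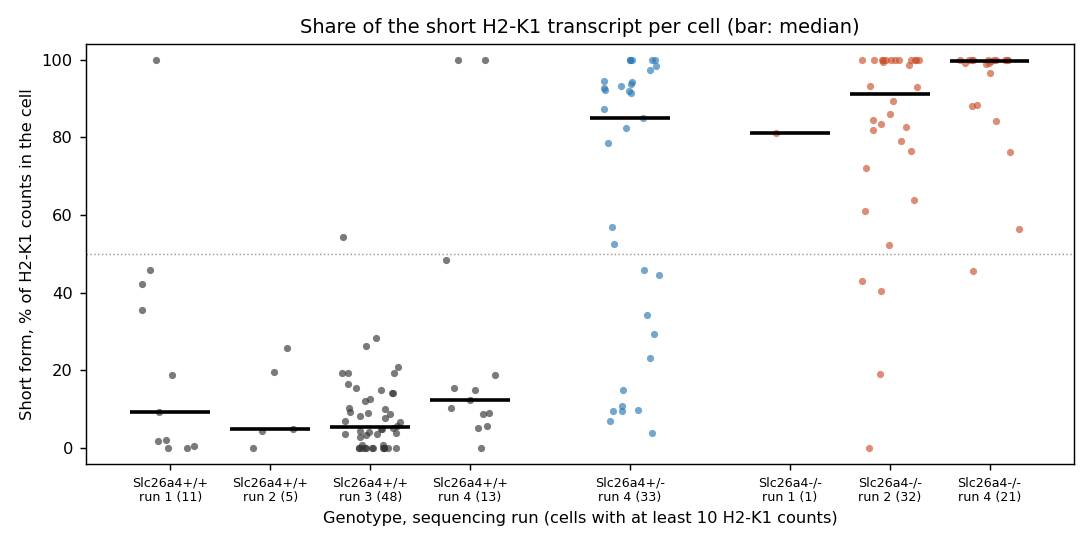
Share of H2-K1 counts assigned to the short form, in percent, in each cell with at least 10 counts of the gene, by genotype and run; bars are medians and the dotted line marks 50%. Slc26a4+/+ medians are 4.81% in run 2 and 12.5% in run 4, and those of Slc26a4-/- cells are 91.1% and 99.7%.

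The contrast held inside both shared runs, at 4.81% against 91.1% in run 2 and 12.5% against 99.7% in run 4, and it did not follow cell type, since the Slc26a4+/+ medians of the 4 cell types ran from 4.45% (RC-like) to 8.84% (IMC-like). In CPM over all cells, the long form averaged 89.2, 39.3 and 8.39 for Slc26a4+/+, Slc26a4+/- and Slc26a4-/-, while the short form averaged 19.6, 34.8 and 50.2. In SC-like cells the long form was 211.7 CPM in Slc26a4+/+ and 5.22 in Slc26a4-/- cells, and the short form 32.6 and 83.7 CPM. Of 7253 genes with at least 2 transcripts to compare, H2-K1 had the largest difference between Slc26a4-/- and Slc26a4+/+ in the share of cells above 50%, at 85.5 points. A difference in the median share of at least 50 points was found in 2 of 9 members (H2-K1 and H2-T22), beside 6.04% of all genes, in 2 of 52 other genes of the H2 region and in 18 of 252 genes of the rest of chromosome 17. The counts were assigned against the transcripts of one reference genome, and whether the animals carried that sequence at these genes was not tested.

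H2-D1 was also split by the form of H2-K1 within each genotype. In Slc26a4-/- cells it averaged 44.9 CPM in 49 cells with over 50% short form and 44.8 CPM in 5 cells with at most 50%. In Slc26a4+/- cells the means were 168 CPM over 21 cells (over 50% short) and 139 CPM over 12 cells (at most 50% short). In Slc26a4+/+ cells they were 85.6 CPM over 4 and 277 CPM over 73 cells. Other members also differed in transcript. A retained-intron transcript of H2-D1 took a median of 0%, 5.6% and 23.9% of that gene's counts in Slc26a4+/+, Slc26a4+/- and Slc26a4-/- cells, with session medians of 0 to 9.39%, 2.51 to 15.8% and 18.4 to 59.7%. The H2-T22 transcript ENSMUST00000172633 took a median of 100% in Slc26a4+/+ and 36.6% in Slc26a4-/- cells, but it held over 50% in 58.1% and 44% of them, a difference of 14.1 points at place 2387 of the 7253 genes. For H2-Q1, transcript ENSMUST00000105041 held over 50% in 1 of 5 Slc26a4+/+, 12 of 12 Slc26a4+/- and 20 of 20 Slc26a4-/- cells. Among cells with H2-DMb counts, H2-DMb1 was found alone in 14 of 20 Slc26a4+/+ and 3 of 8 Slc26a4+/- cells, whereas all 13 Slc26a4-/- cells held both H2-DMb1 and H2-DMb2. The pair shares sequence (34.01% of the 31-base words of H2-DMb2 occur in H2-DMb1).

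Class II RNA was found in few cells. At least 10 counts of any class II gene were present in 61 of 281 cells (21.7%, exact binomial 95% interval 17.03 to 26.99%), and of the classical chains H2-Aa, H2-Ab1, H2-Eb1 and H2-Eb2 in 15 cells (5.34%, interval 3.02 to 8.65%). Of the 17 cells with at least 3 markers of a leukocyte, 8 held a class II gene and 4 a classical chain, against 53 and 11 of the other 264 cells. The summed class II level of Slc26a4+/+ cells was 157 CPM in RC-like cells and 3.56 to 24.1 CPM in the other types, and the highest RC-like cell reached 1388 CPM.

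That cell, a Slc26a4+/+ RC-like cell of run 4, carried 8 of the 12 macrophage markers with 321 counts of H2-Ab1, 143 of H2-Aa and 46 of H2-Eb1, and it held the highest H2-Ab1 level of the type (828 CPM). A Slc26a4+/- cell with 4 B cell markers held 826 counts of H2-Ab1, and a Slc26a4+/+ cell with 4 B cell markers held 489 of H2-Ob and 119 of H2-Ab1. A Slc26a4+/- cell with 3 macrophage markers held 735 counts of H2-DMa, 278 of H2-DMb2 and 125 of H2-DMb1. Outside leukocyte-marked cells the classical chains, at 10 counts or more, came singly, as in a Slc26a4+/+ RC-like cell with 60 counts of H2-Aa, a Slc26a4+/+ SC-like cell with 199 of H2-Eb1 and a Slc26a4-/- RC-like cell with 173 of H2-Eb1. Most marked cells with a classical chain also held 1 alone, as with the H2-Ab1 of both cells with 4 B cell markers. The cell of 8 macrophage markers was the only marked cell with several. Of the 53 cells with a class II gene that were not marked, 34 held at least 10 counts of H2-DMb1, which averaged 64.5 CPM in RC-like and 21.6 CPM in SC-like Slc26a4+/+ cells. In pendrin-expressing cells H2-DMb1 was 39.2 CPM for Slc26a4+/+, 29.6 for Slc26a4+/- and 9.84 for Slc26a4-/-. H2-Ab1 was 21.3 CPM in Slc26a4+/+ and 0 in Slc26a4-/- cells, and H2-Aa was 10.01 and 5.35 CPM. Without the cell of 8 macrophage markers the Slc26a4+/+ means were 0.029 CPM (H2-Ab1) and 0.560 CPM (H2-Aa). The summed macrophage list of the same cells was 375 CPM in Slc26a4+/+ (highest 11364) and 77.4 in Slc26a4-/- cells, with Mrc1 and Fcgr1 at 0 in the former, and its part in the class II values was not tested.

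The genes that assemble class I complexes were set beside the heavy chains. B2m in IMC-like cells was 45.8 CPM for Slc26a4-/-, 64.9 for Slc26a4+/- and 56.1 for Slc26a4+/+, a log2 ratio of Slc26a4-/- to Slc26a4+/+ of -0.29 beside -2.70 for H2-D1. In pendrin-expressing cells B2m was 19.7, 54.7 and 38.7 CPM in the same order. Tap1, one chain of the peptide transporter, was higher in Slc26a4-/- IMC-like cells at 95.02 against 15 CPM, with a count in 18 of 31 against 8 of 52 cells, and it was higher within run 2 (101 against 25.5 CPM) and run 4 (84.0 against 24.7 CPM). Tap2, the other chain, was 144, 180 and 122 CPM in Slc26a4-/-, Slc26a4+/- and Slc26a4+/+ IMC-like cells. Of 12 genes of light chain, loading and peptide supply with at least 10 CPM in IMC-like cells, 1 was higher (Tap1) and 3 were lower (Tapbpl, Erap1 and Psme1) in Slc26a4-/- cells, beside 11.5% and 17.4% of all genes. In pendrin-expressing cells 1 of 13 was higher (Psmb10) and 2 were lower (Erap1 and Psmb8, an immunoproteasome subunit at 0.0194 against 11.6 CPM), beside 15.5% and 22.2%. These shares over all genes, higher and lower, stand beside every list of the same 2 comparisons.

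The class II helpers and the regulators of transcription were counted in the same way. Cd74 in pendrin-expressing cells was 8.199 CPM for Slc26a4-/-, 22.9 for Slc26a4+/- and 12.8 for Slc26a4+/+, and it was at most 0.439 CPM in IMC-like cells. Of the class II helper list, 1 of 3 genes (Ifi30) was lower in Slc26a4-/- IMC-like cells and 1 of 5 (Ctss) in pendrin-expressing cells. Nlrc5, the class I transactivator, was 18.7 CPM in Slc26a4+/- IMC-like cells, where 1 cell held 371 CPM, 0 in Slc26a4+/+ and 0.0133 in Slc26a4-/- cells. Ciita, the class II transactivator, was at most 3.01 CPM in both genotypes of both comparisons. Of 6 regulators with at least 10 CPM in IMC-like cells, 1 was higher in Slc26a4-/- cells (Nfyb, beside 11.5% of all genes) and 2 were lower (Rfx5 and Irf1, beside 17.4%), and of 7 in pendrin-expressing cells 3 were higher (Rfxap, Nfyb and Nfyc, beside 15.5%) and 1 was lower (Rfx5, beside 22.2%). Among class I-like genes outside the H2 region, Mr1 and Ulbp1 were higher and Cd1d1 was lower of 4 in IMC-like cells, and Mr1 and Fcgrt were higher of 3 in pendrin-expressing cells.

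Interferon raises class I transcription in many cells, so interferon-induced genes were counted in the same comparisons. In pendrin-expressing cells 15 of 17 tested genes were higher in Slc26a4-/- cells (beside 15.5% of all genes) and 0 were lower (beside 22.2%), with a median log2 ratio of 2.06 beside -0.13 for all genes, while 7 of 14 H2 members in these cells were lower. Ifit1 was 370 against 18.6 CPM, Irf7 143 against 11.3, Irgm1 185 against 26.3 and Lgals3bp 501 against 140 CPM. The summed list averaged 2914 CPM in Slc26a4-/- cells (lowest 452, median 1588, highest 9984), 1048 in Slc26a4+/- cells (lowest 181, median 705, highest 3010) and 758 in Slc26a4+/+ cells (lowest 1.64, median 644, highest 2793). The ranges overlapped, and the sum was higher among SC-like cells (3789 against 938 CPM) and among RC-like cells (2414 against 499 CPM).

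**Figure D5:**
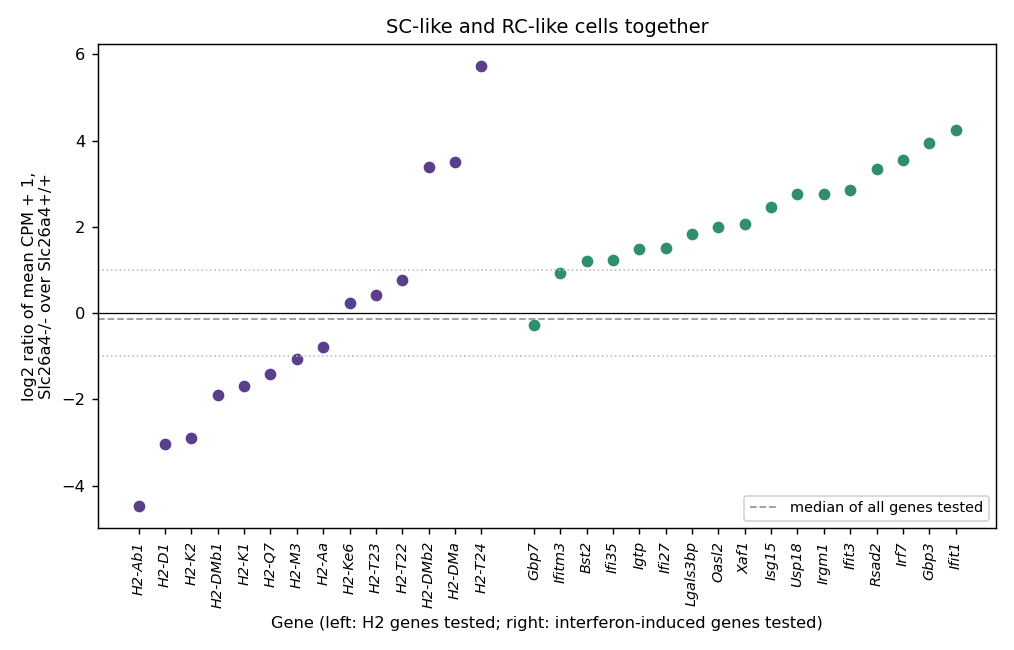
Log2 ratio of mean CPM + 1, Slc26a4-/- to Slc26a4+/+, in pendrin-expressing cells for the 14 H2 members and the 17 interferon-induced genes with at least 10 CPM; each point is a gene, the dashed line is the median of all genes (-0.13) and dotted lines mark 1 and -1. Of the interferon-induced genes 15 lie above 1, and of the H2 members 7 lie below -1, among them H2-D1 at -3.03.

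The interferon result depended on the run. Within run 4 the summed list was 1883 against 760 CPM and 6 of 15 genes were higher (beside 28.5% of all genes) and 3 lower (beside 28.4%), with Ifit1 at 0.704 against 17.5 CPM. Without run 2, 9 of 16 were higher (beside 17.7%) and 2 lower (beside 29.4%). Irgm1 (209 against 24.8 CPM), Ifi27 (697 against 51.2), Gbp3 (21.7 against 0.0931), Oasl2 (134 against 26.1), Bst2 (64.9 against 11.5) and Xaf1 (56.9 against 23.5) were those higher within run 4. In IMC-like cells 3 of 19 genes were higher (Irf7, Gbp2 and Igtp, beside 11.5% of all genes) and 0 lower (beside 17.4%), with a median log2 ratio of 0.07, and the summed list was 2720, 3973 and 2701 CPM for Slc26a4-/-, Slc26a4+/- and Slc26a4+/+. Of 10 receptor and signalling genes in pendrin-expressing cells, 6 were higher in Slc26a4-/- cells (among them Ifnar2, Jak2 and Tyk2, beside 15.5% of all genes) and 2 were lower (Ifnar1 and Ifngr2, beside 22.2%), and of 9 in IMC-like cells 1 was higher (Tyk2, beside 11.5%) and 1 lower (Ifngr1, beside 17.4%).

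The genes most like H2-K1 and H2-D1 across cells were taken from 152 Slc26a4+/+ cells with at least 100000 counts and 10176 genes, as a description, since these cells mix cell types and depths. H2-K1 was most like Krt7 (Spearman rho 0.48), Rbm47 (0.47), Cryab (0.46), Spint1 (0.44) and Cited4 (0.44). H2-D1 was most like Tmed2 (0.53), Anxa1 (0.48), Actb (0.46), Zfp36l2 (0.46) and Elovl1 (0.45). For H2-D1, B2m took place 42 with a rho of 0.38 and H2-K1 place 96. For H2-K1, H2-D1 took place 89 with a rho of 0.35 and B2m place 867 with 0.24. H2-Q7 had a rho of -0.06 with H2-K1 and 0.05 with H2-D1 in these cells.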

How the data were processed

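The authors aligned reads of 281 single cells to the mm10 (GRCm38) transcriptome with kallisto (version not given in the sources used here) and deposited a table of estimated counts per gene, and per cell the estimated counts and the TPM of each transcript. Each deposited gene value equals the sum of its transcripts' estimated counts rounded down. The gene table has 17 columns that are no sample here, which were not used. CPM was computed from the deposited estimated counts over each cell's total. Deposited TPM was summed per gene to compare levels between genes.

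Cells were clustered with Seurat 5.3.0 in R 4.3.3 (2000 variable genes without H2 and pathway genes, 10 components, resolution 0.8). A cluster was named where 80% or more of its cells scored highest for one type. In addition, 3 or more of that type's markers each had to be found in most of its cells. No other cell type's list could hold more of the cluster's 10 leading genes. In all, 33 cells lay within 0.25 of the cut between scores. Python 3.11.15 served for the values and plots (pandas 2.3.3, numpy 2.4.6, scipy 1.17.1, matplotlib 3.10.9), and the ratio script was tested on simulated data. Cells were picked by hand, and no doublet caller was run.

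For 2 genotypes, 1 CPM was added to each mean, the log2 ratio was taken over genes with a mean of at least 10 CPM in either, and a gene was counted as higher or lower past 1. With 1 sample per genotype there were 0 tests. Exact binomial intervals treat cells as independent draws. They cover counting error only, not differences between sessions or animals. Reads had no molecular identifiers. Members with a mean of at least 10 CPM in some type and genotype were named with values, and the pathway genes named were those past the fold and a fixed few (B2m, Tap1, Tap2, Psmb8, Psmb9, Nlrc5, Ciita and Cd74), and 1 gene of these lists is not reported here. Single cells described for class II genes and the transcripts compared were chosen after their values were seen. The members and lists were chosen with earlier results of these data known.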

Additional observations from a re-analysis of the deposited data

How the results depend on the processing

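No paired analysis was possible because the labels name no animal and the sample numbers name single cells. Of 622 values recomputed under alternatives, 550 moved by less than their spread or stayed within 1.5 times for counts, 69 moved and 3 went from a log2 ratio of at least 1 to the opposite sign, and the cause of these changes was not tested unless the construction shows it. The 3 that turned, all in pendrin-expressing cells, were H2-D1 in Slc26a4-/- against Slc26a4+/+ cells within run 2 (log2 ratio 1.44, 3 Slc26a4+/+ cells), H2-D1 in Slc26a4+/- against Slc26a4+/+ cells without run 3 (0.34, with a range of -1.48 to 0.34 over runs left out) and H2-Q7 in the same comparison by the median over cells (0.45). The 7 results reported at a log2 ratio under 1 each changed sign under at least 1 alternative, in 17 values, among them H2-K1 in IMC-like cells (below) and H2-T23 in Slc26a4-/- against Slc26a4+/+ pendrin-expressing cells (-2.04 to 2.48). By the median over cells, H2-K1 in SC-like over IMC-like Slc26a4+/+ cells was 6.41, and in Slc26a4-/- against Slc26a4+/+ IMC-like cells H2-K1 was 3.49 (4.79 within run 2) and H2-T23 -4.28. Without run 3, H2-T23 in IMC-like over MC-like cells was 6.10 (range 2.66 to 6.10 over runs left out). H2-T24 of pendrin-expressing cells in Slc26a4-/- and Slc26a4+/- against Slc26a4+/+ was 7.93 and 8.404 with a pseudocount of 0.1 CPM, 2.78 and 3.20 with 10 CPM, 0.91 and 0.93 by the median over cells, and 2.75 and 3.19 with cell types from the highest marker score. Leaving out the highest cell of each group, chosen after seeing the data, gave 4.53 for the second. It gave 4 lower and 1 higher members in Slc26a4-/- pendrin-expressing cells, 1 interferon-induced gene lower, 1 higher and 1 lower member in Slc26a4+/- IMC-like cells, and 4 lower in Slc26a4+/- pendrin-expressing cells.

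The count of members higher in Slc26a4-/- IMC-like cells, 0 as reported, was 2 by the median, at a minimum of 1 CPM and with no minimum, and 1 with marker-score types, at resolutions of 0.4 and 1.2, and within runs 2 and 4 (0 to 1 over runs left out). The 4 lower became 2 by the median (3 to 5 over runs left out). In pendrin-expressing cells the 3 higher became 6 within run 2 (2 to 4), and the 7 lower became 2 by the median and 4 within run 2 (5 to 8). Interferon-induced genes higher fell from 15 to 6 within run 4 (9 to 15 over runs left out, 9 without run 2), and lower rose from 0 to 3 within run 4 and to 1 at a minimum of 1 CPM or none (0 to 2). In Slc26a4+/- IMC-like cells the 2 higher became 1 with a pseudocount of 10 CPM, by the median, at both other resolutions and within run 4, 0 by session means, and 5 at a minimum of 1 CPM or none (1 to 2), and the 2 lower became 1 by session means, the median, marker-score types and within run 4, and 4 at a minimum of 1 CPM or none (1 to 2). In Slc26a4+/- pendrin-expressing cells the 2 higher became 4 with marker-score types (2 to 3), and the 7 lower became 1 by the median and 12 at a minimum of 1 CPM or none (5 to 8). Cells with a class II gene numbered 123 at 1 count or more and, chosen after seeing the data, 28 without H2-DMb1 and H2-DMb2. Alternatives for the H2-K1 form were also chosen after seeing the data. The share of cells with mostly the short form was 42.9% of Slc26a4+/- cells at 50 counts or more of H2-K1, in place of 63.6%, and 79.6% of Slc26a4-/- cells by transcript TPM, in place of 90.7%. Over runs left out it was 3.13 to 10.3% in Slc26a4+/+ and 87.9 to 95.5% in Slc26a4-/- cells. Low depth limits absence: 20 cells had under 100000 counts.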
